A study of Homo sapiens with 12 samples.

Results

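CD40, CD80, CD83, CD274 and SLAMF7 encode surface proteins through which antigen-presenting cells and lymphocytes act on each other. They were taken by name as the costimulatory and SLAM (signalling lymphocytic activation molecule) surface molecules of the data set, and all 5 were among the 3281 genes that the authors listed as changed by lipopolysaccharide (LPS) in at least 1 genotype. The cells were THP-1, a leukaemia-derived human monocyte line that becomes macrophage-like when given the phorbol ester PMA. All groups had 25 ng/ml PMA for 72 hr and then 4 days of rest. The 4 groups of 3 libraries were S80A cells after 3 hr with LPS at 10 ng/ml, S80A cells at 0 hr, wild-type (WT) cells after 3 hr with the same LPS, and WT cells at 0 hr. S80A is labelled as the NFKB1 genotype in which serine 80 of the p50 subunit is alanine, and the design asks how phosphorylation at that serine bears on transcription after LPS. The labels do not say how the S80A cells were made, whether they are 1 clone, or whether replicates were separate cultures. A difference between genotypes therefore cannot be told apart from a difference between cell lines, and the p-values reflect sample-to-sample spread alone, possibly a technical one. In these bulk samples, fewer cells with a transcript and less of it per cell cannot be told apart.

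T cells respond fully when recognition of antigen is joined by a costimulatory signal from the presenting cell. CD80 is a B7 ligand that stimulates T cells through CD28 and restrains them through CTLA4. CD274 encodes PD-L1, the B7 relative that restrains T cells through PD-1. CD40 is a receptor of the TNF receptor superfamily that takes signals back from T cells bearing CD40 ligand and passes them to TRAF adaptors and NF-κB. CD83 is an immunoglobulin-superfamily protein known as a marker of mature dendritic cells, where it keeps MHC class II and CD86 at the surface by opposing the ubiquitin ligase MARCH1. SLAMF7 (also CS1 or CRACC) is a receptor of natural killer cells, plasma cells and activated macrophages that binds itself on a neighbouring cell. LPS is sensed through TLR4 and activates NF-κB, of which p50 is a DNA-binding subunit with no activation domain of its own.

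Because the members share induction by LPS, their promoters were searched for letters of the κB kind on both strands, with a wide pattern, GGG and CC separated by 5 bases of any kind, and a narrow one in which the third and the fourth of those bases are T. Every match to the narrow pattern also matches the wide one. RefSeq promoter windows of GRCh38.p14, from 250 bases before to 50 after a start, held entries for CD80 (1 window), CD83 (2 windows) and CD274 (1 window). CD40 and SLAMF7 had no entry. The narrow pattern was found in 1 of these 4 windows, the second of CD83, and in 5.68% of all 35116 windows. The wide pattern was found in the same CD83 window (11 matches, overlapping ones and both strands counted) and in that of CD274 (3 matches), and in 58.7% of all windows, so a match to it is common. The CD83 site is shown as 30 bases of the plus strand at chr6:14117687-14117716, with the match to the narrow pattern, read on the minus strand, in capitals. It starts 75 bases before the RefSeq start and lies within the first exon of a CD83 transcript in GENCODE release 29. The CD274 stretch is the 211 bases of the window that lie before the first exon of GENCODE release 29, at chr9:5450292-5450502 on the plus strand, with the overlapping matches to the wide pattern in capitals.
CD83: ctgcccgccgGGGAATCCCCcgggctggcg
CD274: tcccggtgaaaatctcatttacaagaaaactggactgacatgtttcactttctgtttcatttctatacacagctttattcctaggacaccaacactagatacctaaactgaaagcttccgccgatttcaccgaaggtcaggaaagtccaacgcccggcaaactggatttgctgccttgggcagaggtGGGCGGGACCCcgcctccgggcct
A match describes letters in the window and was not tested as a binding site. The windows of CD80 and the first of CD83 held neither pattern.

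Values are scaled reads, which are read counts of a gene divided by 1 size factor per library. Reads on the listed genes ranged from 1924562 to 5789918 per library. Over all listed genes, time separated the libraries on the first principal component (71.1% of variance) and genotype on the second (17.6%), on which S80A replicate 1 lay nearer the WT libraries than the other S80A libraries did at both times. NFKB1 itself is counted alike with or without a changed codon, so its level gives no check of the genotype labels. Of the marker lists, 3 of 9 macrophage and monocyte genes were listed (CD14, MERTK and CD163). They summed to between 2456 and 3018 scaled reads in S80A cells at 3 hr, 5115 to 9884 in S80A cells at 0 hr, 1782 to 2553 in WT cells at 3 hr and 4530 to 6675 in WT cells at 0 hr. The sums hide opposite directions. MERTK was called higher in S80A cells at 3 hr (483 against 77.0 in WT cells, limma adjusted p 0.000785) and at 0 hr (0.00814). CD14 was higher and CD163 lower in S80A cells at both times, and neither was called. The 3 listed of 10 precursor genes (CD34, CEBPE and GFI1) summed to between 210 and 379 in S80A cells at 3 hr, 466 to 799 in S80A cells at 0 hr, 634 to 926 in WT cells at 3 hr and 2269 to 2575 in WT cells at 0 hr. GFI1 made up most of this sum and was called lower in S80A cells at 3 hr (limma adjusted p 0.00444) and at 0 hr (0.00458). CD34 and CEBPE were not called, and CD34 rose with LPS while CEBPE and GFI1 fell. The alternatives were not run for MERTK and GFI1. Of the 7 dendritic cell markers BATF3 was listed, with 35.9 to 130 in S80A cells at 3 hr, 9.45 to 14.9 in S80A cells at 0 hr, 120 to 408 in WT cells at 3 hr and 52.8 to 108 in WT cells at 0 hr. Of the 4 B cell markers CD79B was listed, and of the T cell and NK cell markers (5 genes each) none. Markers outside both tables were not analysed here, and the part of cell state in the genotype differences below was not tested.

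All 5 genes rose with LPS in the authors' deposited tables of both genotypes. By comparison, 60.4% of the genes listed for S80A cells and 61.7% of those listed for WT cells were rising, and a gene is listed only if it changed. The LPS response of SLAMF7 passed the test of a difference between genotypes, and those of CD40, CD80, CD83 and CD274 did not. In the libraries at 0 hr, CD80 and CD274 were close to silent in both genotypes, CD40 and CD83 were at low levels, and SLAMF7 was low in WT cells but not in S80A cells. The plot of the members in each library shows these levels.

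**Figure D1:**
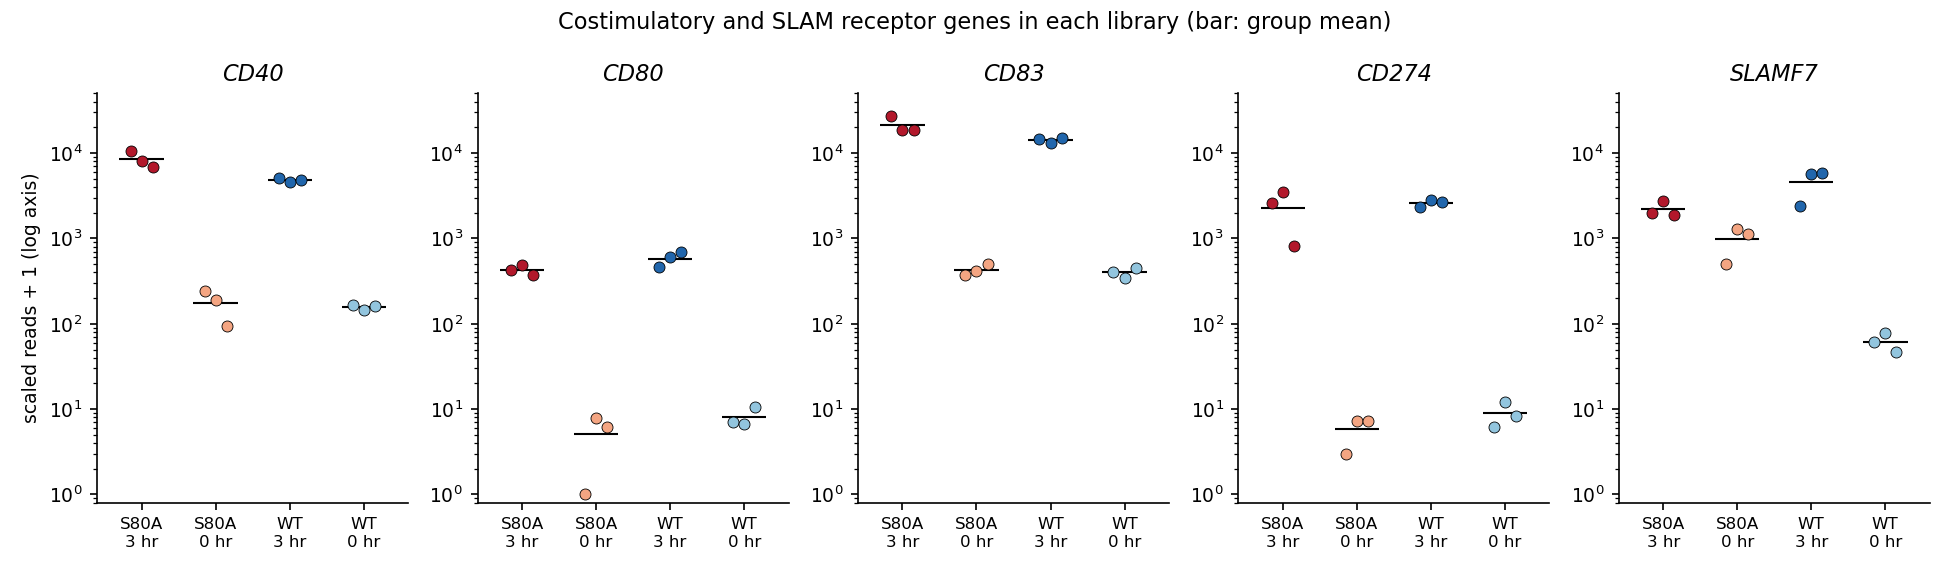
Scaled reads plus 1 on a log axis for CD40, CD80, CD83, CD274 and SLAMF7; each point is 1 library (replicates 1 to 3 from left to right within a group) and each bar a group mean of 3. SLAMF7 at 0 hr averaged 972 in S80A cells and 61.0 in WT cells, while the 0 hr points of the other genes overlap between genotypes.

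CD40, the receptor for CD40 ligand, had 10479, 8091 and 6838 scaled reads in the S80A libraries at 3 hr and 239, 188.5 and 94.5 in those at 0 hr. In WT cells it had 5141, 4554 and 4853 at 3 hr and 167, 146 and 161 at 0 hr. Every S80A library at 3 hr was above every WT library at 3 hr, and the groups at 0 hr overlapped. The share of all listed genes whose groups do not overlap was not counted, here or for the members below. The authors' deposited tables give log2 fold changes of 3 hr over 0 hr of 5.48 in S80A cells and 4.83 in WT cells, with adjusted p-values of 2.47e-88 and 1.09e-68. CD40 occupies the plus strand of chromosome 20 between 46118272 and 46129863 (GENCODE 29, GRCh38, as for all gene positions).

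At 3 hr CD40 averaged 8469 ± 1850 scaled reads in S80A cells and 4849 ± 294 in WT cells (SD, n = 3), a ratio of 1.75. The log2 difference was 0.78 ± 0.22 (SE, 95% interval 0.25 to 1.32), with a limma adjusted p of 0.0268 over the 3281 genes. It was the only call among the 5 members at 3 hr, where 47% of all listed genes were called, 29.2% higher and 17.7% lower in S80A cells. CD40 was at the 69.2 percentile of the signed differences over all listed genes, and 1676 genes had a larger difference in either direction. The call was lost without S80A replicate 2 at 3 hr (adjusted p 0.0707) and without WT replicate 1, 2 or 3 at 3 hr (0.0531, 0.091 and 0.0857), with differences of 0.74 to 0.83. At 0 hr the difference was 0.04 (95% interval -0.87 to 0.94, adjusted p 0.952). The difference of the LPS response, S80A minus WT, was 0.74 ± 0.43 log2 (95% interval -0.20 to 1.69, adjusted p 0.25) and was not called.

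CD83, the marker of mature dendritic cells, had 27013, 18852 and 18436 scaled reads in S80A libraries at 3 hr and 370.5, 409.5 and 506 in those at 0 hr. In WT libraries it had 14710.4, 13253 and 14850.2 at 3 hr and 401, 343 and 451 at 0 hr. The genotypes did not overlap at 3 hr and overlapped at 0 hr, as for CD40 and with no share of all listed genes to set it against. The authors' deposited tables give log2 fold changes of 5.58 in S80A cells and 5.11 in WT cells. CD83 occupies the plus strand of chromosome 6 between 14117256 and 14136918.

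At 3 hr CD83 averaged 21434 ± 4836 scaled reads in S80A cells and 14271 ± 885 in WT cells (SD, n = 3). The log2 difference was 0.57 ± 0.22 (SE, 95% interval 0.03 to 1.10), with a limma adjusted p of 0.0761, short of the threshold of 0.05. It was called in a fit of all 12 libraries (adjusted p 0.0421) and by edgeR with the authors' size factors (0.0386). The difference at 0 hr was 0.10 (95% interval -0.34 to 0.55), and that of the LPS response 0.46 ± 0.30 (95% interval -0.19 to 1.12, adjusted p 0.299).

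CD80, the ligand of CD28 and CTLA4, had 425, 491 and 370.5 scaled reads in S80A libraries at 3 hr and 0, 6.98 and 5.25 in those at 0 hr. In WT libraries it had 457, 599 and 685 at 3 hr and 6.06, 5.63 and 9.68 at 0 hr. The 0 hr values rest on 14 reads over the S80A libraries and 26 over the WT libraries, so the fold change with LPS is poorly bounded by depth. The authors' deposited tables give log2 fold changes of 6.28 in S80A cells and 6.12 in WT cells. CD80 occupies the minus strand of chromosome 3 between 119524293 and 119559602 and overlaps TIMMDC1 on the other strand. The strand setting of the counting is not given in the sources used here, so reads of the pair may not be told apart.

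CD80 averaged 429 ± 60.4 scaled reads in S80A cells and 580.4 ± 115 in WT cells at 3 hr (SD, n = 3), and the groups overlapped. The log2 difference of -0.43 ± 0.23 (SE, 95% interval -0.98 to 0.13) had a limma adjusted p of 0.176. It passed the threshold by edgeR with TMM factors (-0.64, adjusted p 0.0413) and by DESeq2 (-0.65, 0.0177), both of which centre the genotypes differently. By edgeR with the authors' size factors it did not pass. At 0 hr the difference was -1.11 (95% interval -3.22 to 1.01), and S80A replicate 1 with its 0 reads weighed on it. The difference of the LPS response was 0.68 ± 0.87 (95% interval -1.22 to 2.59, adjusted p 0.611), and it was -0.26 without that library.

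CD274, which encodes PD-L1, had the largest fold change of the 5. It had 2571, 3506 and 822.5 scaled reads in S80A libraries at 3 hr and 1.99, 6.21 and 6.30 in those at 0 hr. In WT libraries it had 2349, 2813 and 2665 at 3 hr and 5.20, 11.3 and 7.26 at 0 hr. S80A replicate 3 at 3 hr was the lowest of the libraries with LPS, and the other S80A libraries lay on both sides of the WT median. The authors' deposited tables give log2 fold changes of 8.16 in S80A cells, the 14th largest of 1516 increases there, and 7.81 in WT cells, the 26th of 1441. The 0 hr values rest on 16 reads over the S80A libraries and 29 over the WT libraries. CD274 occupies the plus strand of chromosome 9 between 5450503 and 5470566.

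At 3 hr CD274 averaged 2299.8 ± 1362 scaled reads in S80A cells and 2609 ± 237 in WT cells (SD, n = 3). The log2 difference of -0.42 ± 0.52 (SE, 95% interval -1.65 to 0.82) had a limma adjusted p of 0.54 and was 0.21 without S80A replicate 3. The difference was -0.67 at 0 hr (95% interval -1.80 to 0.47) and 0.25 ± 0.73 for the LPS response (95% interval -1.34 to 1.84, adjusted p 0.824). The interval for the LPS response includes differences of more than 1 log2 in either direction.

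SLAMF7 was the member in which the genotypes parted. It had 2009, 2774 and 1909 scaled reads in S80A libraries at 3 hr and 496, 1296 and 1125 in those at 0 hr. In WT libraries it had 2423, 5641 and 5782 at 3 hr and 59.8, 78.0 and 45.2 at 0 hr. The lowest S80A library at 0 hr was above the highest WT library at 0 hr, whereas at 3 hr WT replicate 1 lay within the range of the S80A libraries. SLAMF7 occupies the plus strand of chromosome 1 between 160739057 and 160754821.

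Before LPS, SLAMF7 averaged 972 ± 421 scaled reads in S80A cells and 61.0 ± 16.5 in WT cells (SD, n = 3), a ratio of 15.9. The log2 difference was 3.89 ± 0.43 (SE, 95% interval 2.81 to 4.97), with a limma adjusted p of 0.00458. It was the only call among the members at 0 hr, where 30.7% of all listed genes were called, 20.1% higher and 10.6% lower in S80A cells, and 35 of the 3281 genes had a larger difference in either direction. The call held in all 14 alternatives, with differences of 3.63 to 4.32. S80A replicate 1, which lay nearer the WT libraries over all genes, had the lowest SLAMF7 of the S80A libraries at 0 hr, and without it the difference was 4.32.

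After LPS, SLAMF7 averaged 2231 ± 473 scaled reads in S80A cells and 4615.5 ± 1900 in WT cells (SD, n = 3). The log2 difference of -0.96 ± 0.38 (SE, 95% interval -1.87 to -0.06) had a limma adjusted p of 0.0769. It was called without WT replicate 1 at 3 hr (-1.38, adjusted p 0.0115), by edgeR with TMM factors (-1.25, 0.0151) and with the authors' size factors (-1.05, 0.0332), and by DESeq2 (-1.25, 0.00159). The 0 hr difference was thus positive and called, and the 3 hr difference negative and called or not by the test used.

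The authors' deposited tables give SLAMF7 a log2 fold change of 1.15 in S80A cells, with an adjusted p of 0.00827, and of 5.96 in WT cells, with an adjusted p of 7.46e-54. It was the 1390th largest of 1516 increases in S80A cells and the 66th of 1441 in WT cells. The S80A entry lies close to the authors' limits of 0.01 and 1, and no alternative met both of them. These alternatives were limma and edgeR fits, and DESeq2 was not rerun for this response. On limma the S80A rise was 1.29 with an adjusted p of 0.0196, and on edgeR with TMM factors 0.55 with 0.18. TMM factors also moved the median response of all listed genes in S80A cells, from 0.94 on limma to 0.34. With 1 library left out in turn, the rise of SLAMF7 was 0.86 to 1.56. Under the blocked fit by replicate number, limma gave an adjusted p of 0.0115.

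The LPS response of SLAMF7 was smaller in S80A than in WT cells, with a log2 difference of -4.86 ± 0.60 (SE, 95% interval -6.17 to -3.55) and a limma adjusted p of 0.00119. This was the only call among the members for the LPS response, where 14.1% of all listed genes were called, 7.19% higher and 6.95% lower in S80A cells, and 11 of the 3281 genes had a larger difference. The difference was called in all 22 alternatives and lay between -5.28 and -4.59. Without S80A replicate 1 at both times it was -5.22. In scaled reads, the mean gain over 0 hr was 1258 in S80A cells and 4554.5 in WT cells for SLAMF7, against 8295 in S80A cells and 4691 in WT cells for CD40.

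**Figure D2:**
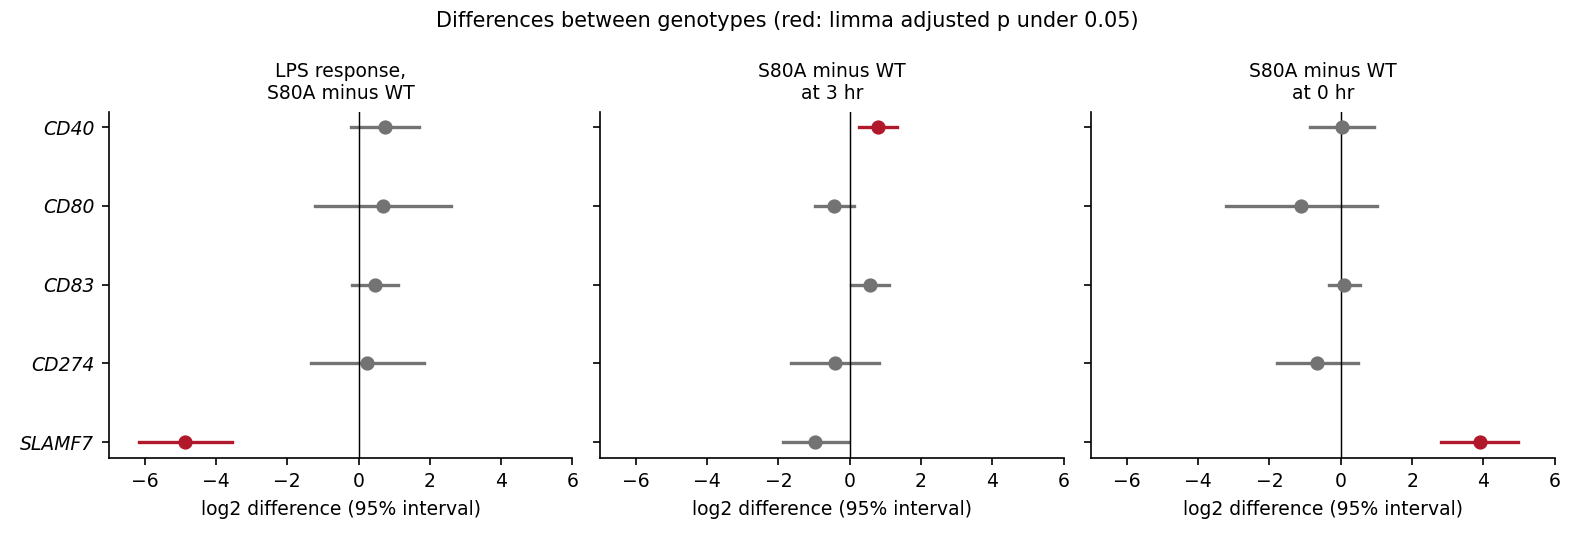
Points are limma log2 differences and lines their 95% intervals for the LPS response (S80A minus WT), for S80A minus WT at 3 hr and for S80A minus WT at 0 hr, from 3 libraries per group; red marks an adjusted p under 0.05. SLAMF7 stands at -4.86 for the response and 3.89 at 0 hr, CD40 at 0.78 at 3 hr, and the intervals of CD80 and CD274 all include 0.

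Divided by exon length (merged exons of GENCODE 29), the order of the levels could be compared between genes. At 3 hr in S80A cells, CD83 was highest at 8522 ± 1923 scaled reads per kb, followed by CD40 at 4486 ± 980 (SD, n = 3). SLAMF7 at 760 ± 161 and CD274 at 624 ± 370 scaled reads per kb came next and did not differ beyond their spread, and CD80 was lowest at 143 ± 20.2. At 3 hr in WT cells the order was the same, with CD83 at 5674 ± 352, CD40 at 2569 ± 155, SLAMF7 at 1572 ± 647, CD274 at 708 ± 64.3 and CD80 at 194 ± 38.5 scaled reads per kb. At 0 hr SLAMF7 was first in S80A cells, at 331 ± 144 scaled reads per kb, with libraries of 169 to 441 around the 170.4 ± 27.7 of CD83, and CD40 followed at 92.2 ± 38.9. In WT cells at 0 hr SLAMF7, at 20.8 ± 5.61, came after CD83 at 158 ± 21.4 and CD40 at 83.7 ± 5.91 scaled reads per kb. CD80 and CD274 were under 3.5 scaled reads per kb in every library at 0 hr and did not differ from each other beyond their spread.

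Across the 12 libraries, the genes with at least 100 scaled reads on average that were most like each member (Pearson r of log2 values, 2147 genes compared) gave another view of these patterns. The libraries fall into 4 groups, so r mostly restates the group means. Closest to CD83 were SOD2 (r = 0.998), NFKBIA (0.997) and NFKB1 (0.997), which encode mitochondrial superoxide dismutase, the NF-κB inhibitor IκBα and the p105 precursor of p50. Closest to CD40 were GADD45B (0.993), STAT5A (0.993) and SQRDL (0.992). Closest to CD274 were EIF2AK2 (0.994), which encodes the antiviral kinase PKR, DTX3L (0.993) and PIM3 (0.993), and closest to CD80 were C17orf96, DNAJA1 and IL18RAP (all 0.990). The nearest to SLAMF7 were CELF1 (r = 0.970), AC147651.4 (0.968) and LINC01137 (0.967). LINC01137 averaged 191 ± 31.8 scaled reads in S80A cells at 3 hr, 133 ± 17.3 in S80A cells at 0 hr, 348 ± 55.1 in WT cells at 3 hr and 47.6 ± 4.45 in WT cells at 0 hr. Among the members, r over 12 libraries was 0.940 to 0.989 between CD40, CD80, CD83 and CD274, and 0.724 to 0.773 between SLAMF7 and each of them.

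The SLAM family list gave the company of SLAMF7. Of its 11 genes 6 were listed, of which 3 rose and 1 fell in S80A cells and 2 rose and 3 fell in WT cells. The median log2 difference of the LPS response was 0.42 over the 6, against 0.0004 over all listed genes. SLAMF7 was the only gene of the 6 called for that response, against 14.1% of all listed genes. CD48, the ligand of CD244, had log2 fold changes of 2.71 in S80A cells and 4.72 in WT cells in the authors' deposited tables. It rested on 35 reads in S80A cells and 88 in WT cells at 3 hr and did not pass the test of the difference.

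LY9 and SLAMF6, which like SLAMF7 bind themselves, fell with LPS in WT cells, and LY9 fell in S80A cells too. LY9 averaged 94.8 ± 8.56 scaled reads in S80A cells and 29.4 ± 2.44 in WT cells at 0 hr (SD, n = 3), a log2 difference of 1.66 ± 0.13 with a limma adjusted p of 0.00328. At 3 hr it averaged 31.9 ± 4.45 in S80A cells and 10.3 ± 7.08 in WT cells (1.76 ± 0.49, adjusted p 0.025). SLAMF6 averaged 52.6 ± 26.1 in S80A cells and 13.2 ± 6.96 in WT cells at 3 hr (1.93 ± 0.52, adjusted p 0.0225). The 3 hr calls of LY9 were lost without S80A replicate 1, 2 or 3 or WT replicate 3, and those of SLAMF6 without S80A replicate 2 or 3 or WT replicate 1 or 3 (adjusted p 0.0556 to 0.0661). SLAMF1 had no reads in S80A libraries at 0 hr and 22 over the WT libraries, a fitted difference of -2.50 (adjusted p 0.0271) that depends on the pseudocount and was lost with a pseudocount of 5 (0.0752), without S80A replicate 1, 2 or 3 and without WT replicate 3 (0.0543 to 0.0879). CD84 averaged 952 ± 509 in S80A cells and 861 ± 203 in WT cells at 3 hr and was not called between genotypes.

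**Figure D3:**
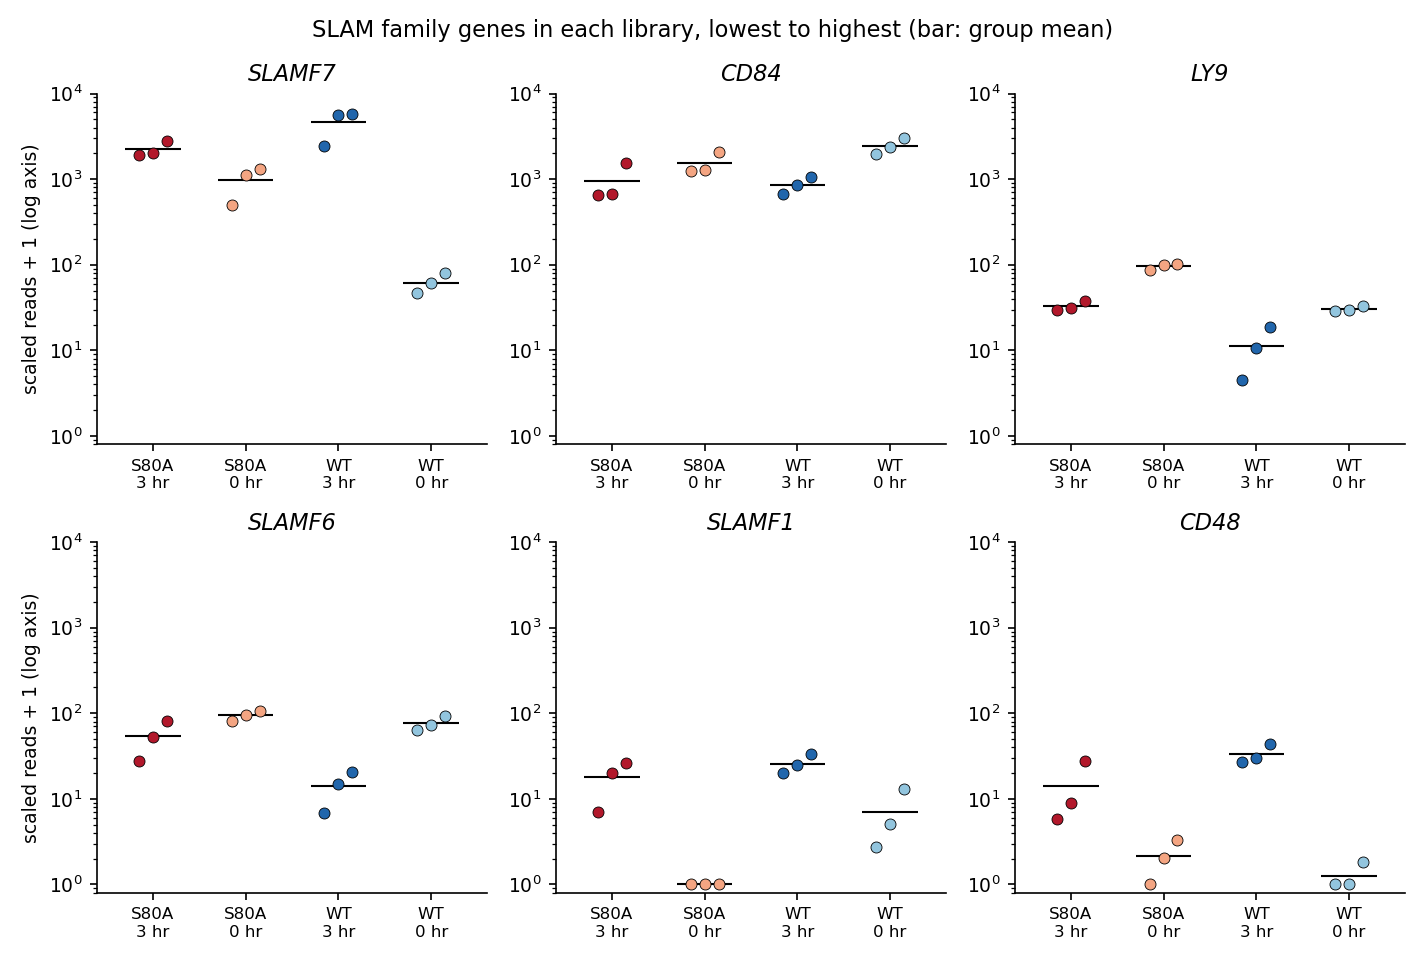
Scaled reads plus 1 on a log axis for the 6 listed SLAM family genes; points are the 3 libraries of a group from lowest to highest and bars group means. SLAMF7 at 0 hr separates S80A from WT cells by 15.9 times, and LY9 is higher in S80A than in WT cells at both times.

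In the B7 and CD28 family, 8 of 16 genes were listed; 5 rose and 0 fell in S80A cells, and 7 rose and 1 fell in WT cells. CD274 and CD80 had the largest fold changes of the list. PDCD1, which encodes the PD-1 receptor that binds PD-L1, had no reads at 0 hr in either genotype, and had 2 reads over the S80A libraries and 48 over the WT libraries at 3 hr. It was called at 3 hr and for the LPS response by limma (adjusted p 0.0019 and 0.00259), but for the response not by edgeR with either scaling or by DESeq2 (adjusted p 0.153 in DESeq2). CD28, the T cell protein that CD80 binds, was listed at low levels, with 27.1 ± 6.92 scaled reads in S80A cells and 1.41 ± 1.22 in WT cells at 3 hr (SD, n = 3), a log2 difference of 3.69 ± 0.48 with an adjusted p of 0.00187. BTN2A2, a butyrophilin, averaged 112 ± 20.9 in S80A cells and 270.3 ± 35.7 in WT cells at 3 hr (-1.27 ± 0.22, adjusted p 0.00463). NCR3LG1, the B7-H6 ligand of an NK cell receptor, averaged 185 ± 36.0 in S80A cells and 364 ± 19.2 in WT cells at 0 hr (-0.99 ± 0.17, adjusted p 0.0129), a call lost without S80A replicate 2 (0.0502) or WT replicate 2 (0.0536) at 0 hr. The median difference over the list was -0.42 at 3 hr and -0.13 at 0 hr, against 0.19 at both times over all listed genes.

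Of the 16 genes of TNF receptor superfamily costimulators and their ligands 10 were listed; 8 rose and 2 fell in S80A cells, and 8 rose and 1 fell in WT cells. TNFRSF9, which encodes 4-1BB, had log2 fold changes of 4.48 in S80A cells and 6.29 in WT cells in the authors' deposited tables and was not called between genotypes. TNFRSF18, which encodes GITR, averaged 13.8 ± 6.62 scaled reads in S80A cells and 2.48 ± 1.62 in WT cells at 0 hr (SD, n = 3), a log2 difference of 2.11 ± 0.50 with a limma adjusted p of 0.0301. That call was lost without S80A replicate 2 or 3 or WT replicate 1 or 2 at 0 hr (0.0691 to 0.0921). TNFRSF25, the death receptor DR3, differed in the direction of SLAMF7. It averaged 2.69 ± 0.588 in S80A cells at 3 hr, 35.3 ± 10.2 in S80A cells at 0 hr, 38.1 ± 7.05 in WT cells at 3 hr and 26.2 ± 5.63 in WT cells at 0 hr, a difference of the LPS response of -3.80 ± 0.36 (adjusted p 0.000346). CD70, the ligand of CD27, averaged 3393 ± 1833 in S80A cells and 9543 ± 294 in WT cells at 3 hr (-1.65 ± 0.42, adjusted p 0.0173), and TNFSF15, the ligand of DR3, 1893 ± 234 in S80A cells and 1074 ± 170 in WT cells (0.82 ± 0.22, adjusted p 0.0199). The CD70 call was lost without WT replicate 2 or 3 at 3 hr (0.0522 and 0.0575) and that of TNFSF15 without S80A replicate 2 or WT replicate 2 (0.0742 and 0.0777). In the fit of all 12 libraries neither was called (0.0505 for CD70 and 0.151 for TNFSF15).

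**Figure D4:**
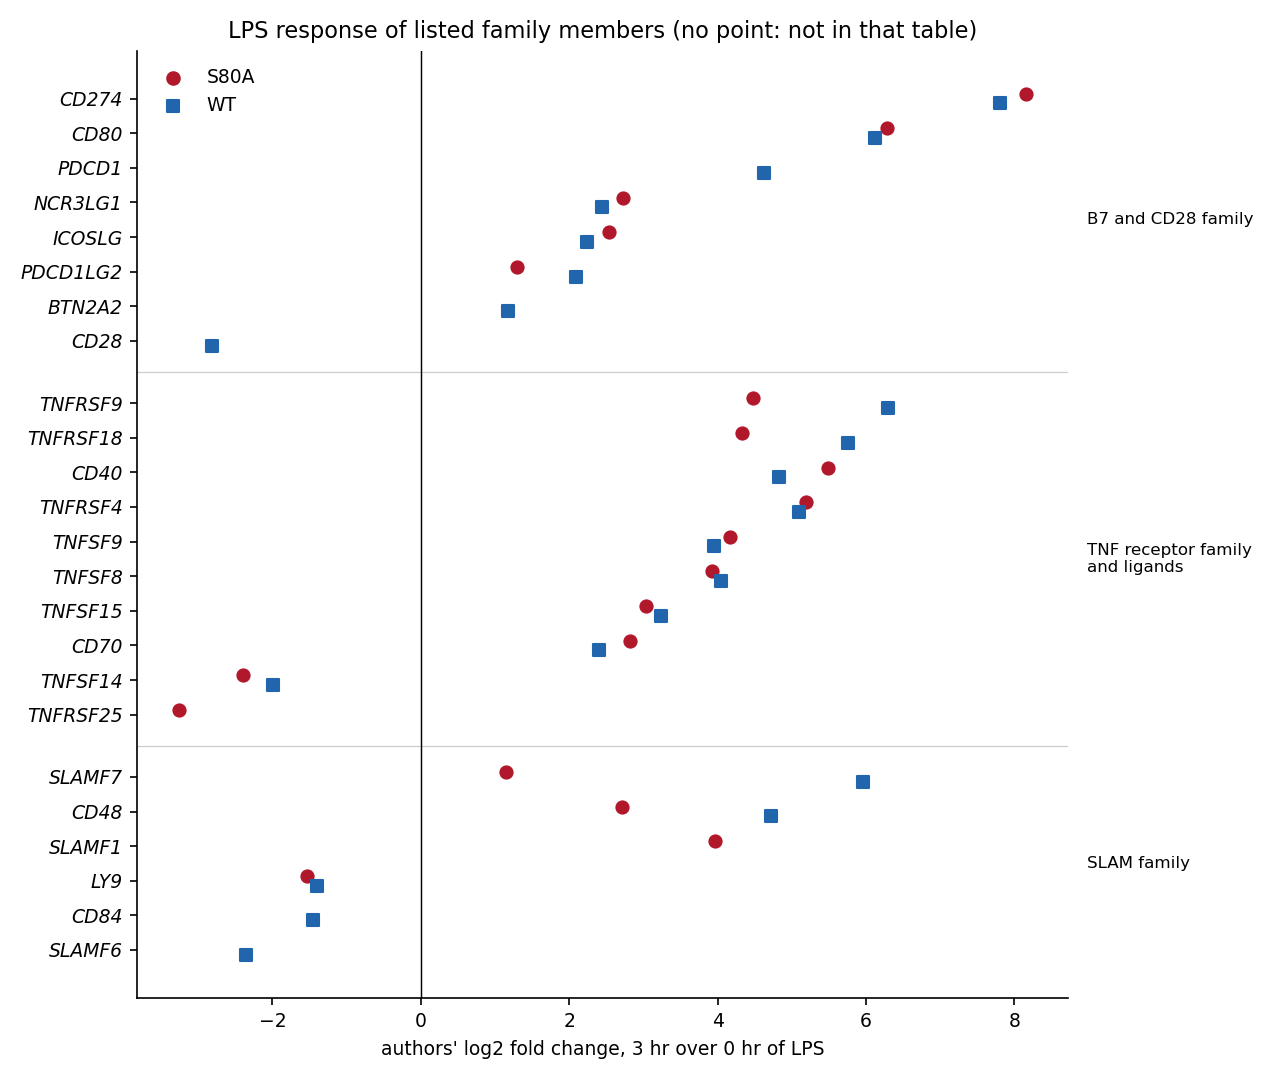
The authors' log2 fold changes of 3 hr over 0 hr for the listed genes of the B7 and CD28 family, the TNF receptor superfamily costimulators with their ligands, and the SLAM family, with S80A as circles and WT as squares. CD274 (8.16 in S80A cells, 7.81 in WT cells) is farthest to the right, and the S80A and WT points of SLAMF7 (1.15 and 5.96) lie far apart.

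Of the 10 signalling genes below CD40, 7 were listed; all 7 rose in S80A cells and 6 in WT cells, with none falling. At 3 hr, 4 of the 7 were called higher and 1 lower in S80A cells, against 29.2% higher and 17.7% lower among all listed genes, and the median difference was 1.25, against 0.19 over all listed genes. TRAF1, an adaptor of the receptor, averaged 50108 ± 1159 scaled reads in S80A cells and 20969.9 ± 1887 in WT cells at 3 hr (SD, n = 3), a log2 difference of 1.26 ± 0.18 with a limma adjusted p of 0.00247. BIRC2 and BIRC3, which encode the ubiquitin ligases cIAP1 and cIAP2, differed by 1.41 ± 0.21 (adjusted p 0.00258) and 1.55 ± 0.35 (0.012), and BIRC3 was not called in the fit of all 12 libraries (0.079). MAP3K14, the kinase NIK of the alternative NF-κB pathway, differed by 1.25 ± 0.34 (adjusted p 0.0225), a call lost without S80A replicate 3 or WT replicate 2 or 3 (0.0501 to 0.0802). NFKB2, which encodes the p100 precursor of p52, averaged 9007 ± 1562 in S80A cells and 13954 ± 1054 in WT cells at 3 hr (-0.64 ± 0.21, adjusted p 0.0421). Its LPS response differed by -1.30 ± 0.35 (adjusted p 0.0313, and 0.0513 with a replicate block within genotype). Leaving out S80A replicate 2 or 3 or any WT replicate at 3 hr lost the 3 hr call of NFKB2 (0.0644 to 0.131). At 0 hr TRAF1 averaged 219.5 ± 93.1 in S80A cells and 52.7 ± 8.26 in WT cells (1.94 ± 0.39, adjusted p 0.0191), a call lost without S80A replicate 2 or any 1 of the WT replicates (0.0568 to 0.0695).

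Of the 9 genes of the interferon to PD-L1 axis 6 were listed, with 4 rising and 1 falling in each genotype. None of the 6 was called for the LPS response, against 14.1% of all listed genes. In S80A cells 3 of the 6 were called higher at 3 hr, against 29.2% of all listed genes, and 3 at 0 hr, against 20.1%. IFNGR2, a chain of the interferon-γ receptor, averaged 19657 ± 1046 scaled reads in S80A cells and 7580.0 ± 689 in WT cells at 3 hr (SD, n = 3), a log2 difference of 1.38 ± 0.18 with a limma adjusted p of 0.00201. IFNGR1, the other chain, differed by 1.00 ± 0.21 (adjusted p 0.0083) and JAK1, a kinase of that receptor, by 1.36 ± 0.24 (0.00455). At 0 hr the differences were 0.74 ± 0.14 for IFNGR2 (adjusted p 0.0173), 0.84 ± 0.15 for IFNGR1 (0.0126) and 0.53 ± 0.14 for JAK1 (0.0391). The 0 hr calls were lost for IFNGR2 without S80A replicate 2 or WT replicate 3 (0.0619 and 0.0611), for IFNGR1 without WT replicate 2 (0.0504), and for JAK1 under most alternatives, among them edgeR with TMM factors (0.30, adjusted p 0.193). IRF1, the transcription factor of the axis, averaged 12926 ± 3177 in S80A cells and 10319.9 ± 422 in WT cells at 3 hr. It did not pass the test between genotypes, and neither did CD274.

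In the list of dendritic cell maturation with CD83, 7 of 16 symbols were listed, with MARCH1 also entered as MARCHF1. Of the listed genes, 5 rose and 0 fell in S80A cells, and 6 rose and 1 fell in WT cells. LAMP3, a lysosomal protein of mature dendritic cells, had log2 fold changes of 7.33 in S80A cells and 7.15 in WT cells in the authors' deposited tables and was not called between genotypes. CCR7, the receptor that guides mature dendritic cells to lymph nodes, averaged 29.8 ± 9.43 scaled reads in S80A cells and 546 ± 152 in WT cells at 3 hr (SD, n = 3), a log2 difference of -4.16 ± 0.32 with a limma adjusted p of 0.000756. Its LPS response differed by -3.87 ± 0.68 (adjusted p 0.0053), which edgeR did not call (0.0835 with TMM factors). CCL19, a ligand of CCR7, averaged 7.57 ± 8.03 in S80A cells and 67.2 ± 12.4 in WT cells at 3 hr (-3.38 ± 0.61, adjusted p 0.00499). CCL22, a chemokine of dendritic cells, differed the other way in the LPS response (1.93 ± 0.51, adjusted p 0.0306), with 409 ± 104 in S80A cells and 210.1 ± 136 in WT cells at 3 hr and 40.5 ± 2.24 in S80A cells and 72.7 ± 3.98 in WT cells at 0 hr. The LPS response of CCL19, which rests on 0 reads in S80A cells and 3 in WT cells at 0 hr, differed by -2.62 on limma (adjusted p 0.0438), but by -0.0062 by edgeR with TMM factors, -0.17 with the authors' size factors and -0.89 by DESeq2 (0.704 to 0.753), whereas its 3 hr call held in all alternatives. The dendritic cell marker BATF3, a transcription factor named after its values were seen, was lower in S80A cells at both times. It averaged 75.7 ± 48.7 in S80A cells and 252 ± 146 in WT cells at 3 hr (-1.75 ± 0.59, adjusted p 0.0471) and 12.8 ± 2.93 in S80A cells and 80.4 ± 27.5 in WT cells at 0 hr (-2.53 ± 0.32, adjusted p 0.00593). Its 3 hr call was lost with a pseudocount of 0.5 (0.0504) and without S80A replicate 1 or 3 or WT replicate 2 or 3 (0.11 to 0.14). BATF3 was the only listed gene of the 7 dendritic cell markers, and all samples were THP-1 cells. The part of cell state in the differences of CCR7 and CCL19 was not tested.

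The adhesion ligands of the immune synapse were searched under 10 symbols, with CD58 also entered as LFA3 and PVRL2 as NECTIN2. All 5 listed genes rose in both genotypes, and 4 of the 5 were called higher in S80A cells at 3 hr, against 29.2% of all listed genes, with a median difference of 1.24. ICAM1, the ligand of the integrin LFA-1, averaged 126986 ± 13112 scaled reads in S80A cells and 42417 ± 2761 in WT cells at 3 hr (SD, n = 3), a log2 difference of 1.58 ± 0.19 with a limma adjusted p of 0.00164. ICAM4 differed by 1.97 ± 0.24 (adjusted p 0.00168), CD58, the ligand of CD2, by 1.24 ± 0.27 (0.0101), and PVR, a ligand of DNAM-1 and TIGIT, by 1.18 ± 0.22 (0.00565). At 0 hr ICAM1 averaged 4139 ± 1860 in S80A cells and 858 ± 247 in WT cells (2.18 ± 0.45, adjusted p 0.0197), a call lost without S80A replicate 2 or WT replicate 1 or 2 (0.065 to 0.0739). PVR was also called for the LPS response (1.06 ± 0.26, adjusted p 0.0235). TMM and DESeq2 scaling lowered the median of all differences by 0.18 at 3 hr, and by 0.19 and 0.16 at 0 hr, and no named call of these lists changed sign under them. At 0 hr that scaling moved the split of all calls, from limma's 660 higher and 347 lower in S80A cells to 540 and 528 by edgeR with TMM factors.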

How the data were processed

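THP-1 cells of 2 genotypes were measured by RNA-seq at 0 and 3 hr of LPS, in 12 libraries of single-end 75-base reads per the labels' protocols (poly(A) selection, stranded kit). Per the submitters' processing notes the tools included HISAT, HTSeq, DESeq2, StringTie, FastQC and Cuffdiff, with GRCh38 as the build, without versions, roles or order. The signal values that the authors deposited per library are read counts divided by 1 size factor (0.834 to 1.29), as the values show: 100% of them were whole multiples of 1 step to within 0.01 reads, which gave back the counts. The authors deposited a log2 fold change, a p-value and an adjusted p-value per gene, for genes whose adjusted p was below 0.01 and whose log2 fold change exceeded 1 in size, namely 2508 in the S80A table and 2335 in the WT table, 1562 of them in both with identical values. Genes outside the tables were not analysed here, so background shares describe LPS-responsive genes. The tables' own positions disagreed with the gene names and were set aside.

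Differences of the LPS response (12 libraries) and between genotypes at 3 hr and at 0 hr (6 libraries each) were tested with limma 3.58.1 (R 4.3.3) on log2(scaled reads + 1), with Benjamini-Hochberg adjustment over 3281 genes and a threshold of 0.05. On this scale, differences of genes with few reads depend on the pseudocount and can come out too small or too large. For the LPS response, PDCD1 was -3.64 on limma against -4.44 by edgeR with TMM factors, and CCL19 -2.62 against -0.0062. The LPS response within a genotype is the authors' call and is given as a description, since it put genes in the tables. In simulated counts for the LPS response, the test recovered 11.9% of the 1 log2 differences, 77.6% of the 2 log2 ones and 98.5% of the 4 log2 ones, and 10 of its 135 calls were false. The simulated differences were placed only in genes above a floor of scaled reads at 0 hr in both genotypes. Among the genes below that floor were CD80, CD274, CCR7, CCL19, PDCD1, CD28, CD48, SLAMF1, TNFRSF9, TNFRSF18, LAMP3, ICAM4 and BATF3. These shares do not describe genes below it. Alternatives were pseudocounts of 0.5 and 5, a mean of at least 10 scaled reads and a replicate block. Other gene or library sets and fits with each library left out were also run. On the recovered counts, edgeR 4.0.16 with TMM factors and DESeq2 1.42.0 called 428 and 631 genes for the LPS response, against 464. The TMM and DESeq2 factors were estimated from the listed genes alone, all of them changed by LPS in at least 1 genotype. Fits with these factors are therefore no independent check of the scaling. edgeR with the authors' size factors, the block within genotype, the block on the LPS responses and leaving out S80A replicate 1 at both times were chosen after seeing the data. The deviations of same-numbered libraries from their group means correlated at 0.196 to 0.299 between times in S80A cells, 0.153 to 0.343 between times in WT cells, and 0.188 to 0.259 between genotypes at 0 hr, so the numbers were taken to pair those. Between genotypes at 3 hr they correlated at 0.064 to 0.196. These ranges overlap, so whether the numbers pair the genotypes at 3 hr is not settled. The main tests used no pairing. Named genes are the members, the 3 listed genes of each list with the largest authors' change, up to 3 more that were called, and the 3 nearest patterns of each member. Members and lists were chosen with earlier results of these data known. A gene that the rule names is not reported here. Python 3.11.15, pandas 2.3.3 and matplotlib 3.10.9 were also used.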

Additional observations from a re-analysis of the deposited data

Results flagged for a closer look

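The LPS response differed between S80A and WT cells, by limma's interaction term, for SLAMF7 and for 7 of the other genes named from the lists, marker lists aside. Some of these genes were named because they were called, so their number is no share of the lists. Of all listed genes, 14.1% were called for this response. The log2 differences, S80A minus WT, were -4.86 for SLAMF7, -3.64 for PDCD1, -3.80 for TNFRSF25, -1.30 for NFKB2, -3.87 for CCR7, -2.62 for CCL19, 1.93 for CCL22 and 1.06 for PVR. PDCD1 had no reads at 0 hr in either genotype, so its value depends on the pseudocount and is no bound. SLAMF7 and TNFRSF25 were called in all alternatives, and each of the others lost its call in at least 1. PDCD1 and CCR7 lost theirs in edgeR. CCL19 differed by -0.0062 by edgeR with TMM factors, -0.17 by edgeR with the authors' size factors and -0.89 by DESeq2, and lost its call in each. Leaving out S80A replicate 2 at 3 hr, WT replicate 2 or 3 at 3 hr or WT replicate 1 or 2 at 0 hr ended the calls of NFKB2, CCL19, CCL22 and PVR (adjusted p 0.0552 to 0.094). Leaving out S80A replicate 3 at 3 hr or replicate 2 at 0 hr ended those of NFKB2, CCL19 and CCL22 (0.0622 to 0.0866), S80A replicate 3 at 0 hr those of NFKB2 and CCL19 (0.0533 and 0.0669), S80A replicate 1 at 0 hr and WT replicate 1 at 3 hr that of CCL19 (0.0583 and 0.0555), and WT replicate 3 at 0 hr that of CCL22 (0.0667).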

How the results depend on the processing

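SLAMF7 kept its call for the LPS response and at 0 hr in every alternative run, and for the LPS responses within a genotype all members but SLAMF7 in S80A cells kept theirs. The rise of SLAMF7 in S80A cells missed the authors' limits with limma (1.29), edgeR with TMM factors (0.55) and with the authors' size factors (1.20), limma with a replicate block (1.29), and each library left out (0.86 to 1.56). At 3 hr, CD40 lay between 0.62 and 0.93 with each library left out and lost its call in 4 of these fits. CD83 at 3 hr passed the threshold in the fit of all 12 libraries (0.57) and by edgeR with the authors' size factors (0.59). CD80 passed by edgeR with TMM factors (-0.64) and DESeq2 (-0.645), and SLAMF7 by these (-1.25 each), by edgeR with the authors' size factors (-1.05) and without WT replicate 1 at 3 hr, in a range of -1.38 to -0.75 over the fits without 1 library.

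Signs turned for values whose 95% intervals included 0. For the LPS response, CD80 was -0.26 and CD274 -0.18 without S80A replicate 1 at 0 hr, and CD80 was -0.25 and CD274 -0.38 without S80A replicate 1 at both times. CD274 was also -0.0145 with a pseudocount of 5, -0.17 without S80A replicate 2 at 3 hr and -0.0094 without WT replicate 2 at 0 hr. Over all fits without 1 library the LPS response of CD80 lay between -0.26 and 1.24 and that of CD274 between -0.18 and 0.87. At 3 hr CD274 lay between -0.84 and 0.21, the highest being without S80A replicate 3. At 0 hr CD40 was -0.0853 by edgeR with TMM factors and -0.0551 by DESeq2, and CD83 -0.13 and -0.10 by these. With 1 library left out, CD40 lay between -0.24 and 0.43 and CD83 between -0.0237 and 0.20. The causes were not tested.

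Genes called for the LPS response numbered 464, against 70 among genes of both tables, 805 without S80A replicate 1 at both times and 259 to 663 with 1 library left out. Genes called at 0 hr numbered 1007, against 497 to 1200 with 1 library left out. The blocked fit by replicate number called 620 genes for the LPS response (657 with the block within genotype), 1493 at 3 hr and 1009 at 0 hr, and changed no call of a member in these comparisons. At 3 hr, where it is not settled whether the numbers pair the genotypes, the block ended the call of NFKB2. CD80 and CD274 rest on 14 to 29 reads per group at 0 hr, which limits their fold changes.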
